A study of Oryza sativa with 6 samples.

Results

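The florigen gene Hd3a and 3 MADS-box genes were followed in leaves of rice in which the microRNA gene MIR171f was overexpressed or knocked out. They were chosen by gene identifier: Os06g0157700 (Hd3a, which the expression table describes as similar to SP3D, the tomato florigen), Os03g0752800 (MADS14), Os07g0605200 (MADS18) and Os03g0215400 (described only as a MADS-domain protein of sexual reproduction). They are 4 of 6535 genes in the deposited table, each with 1 of its 7194 transcripts, and all 4 passed the filter on low counts. The genes were picked because of how they differed between these libraries, so their own levels and fold changes are given as a description, with no test.

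Poly(A) RNA was sequenced from leaves of 4-week-old plants in 6 libraries, 2 for each of 3 genotypes. The OX libraries represent lines 3 and 5, which overexpress Osa-MIR171f in the whole body; the promoter is not given in the sources used here. The KO libraries came from CRISPR-Cas9 mutants of Osa-MIR171f and both carry line number 2, so they may stand for 1 mutant line. The WT libraries came from nontransgenic rice. No drought or other treatment is given in the labels. Nothing in the labels tells whether KO or WT libraries were taken from different plants. P-values therefore reflect the spread among these 6 libraries, which may be technical. By its title the study concerned miR171f, its SCARECROW-LIKE6 targets, drought tolerance and flavonoid genes. Flowering genes are outside that stated subject.

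Florigen is a small protein of the phosphatidylethanolamine-binding (PEBP) family. It is made in leaf veins when day length is permissive and travels through the phloem to the shoot tip. There it joins 14-3-3 proteins and a bZIP factor and switches on MADS-box genes of the APETALA1/FRUITFULL type, to which MADS14 and MADS18 belong. In rice those MADS-box genes are also transcribed in leaves, where their transcripts accompany florigen expression. CONSTANS-type proteins, which carry B-box and CCT domains, stand upstream of florigen and read day length.

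The table is the authors' selection: a transcript is listed where 1 or more of their comparisons gave a 2-fold difference at an unadjusted p below 0.05. Large shares of it therefore pass any test. Listed counts summed to 7376228 and 8192874 in OX, 8452027 and 8802235 in KO, and 9739821 and 9294810 in WT. The authors' effective library totals were 31743854 and 34214364 in OX, 26078166 and 27349913 in KO, and 25823009 and 23869522 in WT. Levels compared between genotypes are counts scaled to these totals (counts per 1000000, CPM), and levels compared between genes are the authors' TPM, which are scaled to transcript length. P-values are from the edgeR quasi-likelihood fit, adjusted by Benjamini-Hochberg, and a transcript is called at an adjusted p below 0.05. Leaf identity was clear from 14 listed transcripts of the ribulose bisphosphate carboxylase small chain and of chlorophyll a/b-binding proteins, which held 4.18% to 8.27% of each library's TPM. No description in the table names MIR171f, so overexpression and knockout could not be checked on the level of MIR171f itself. Transcripts of its SCARECROW-LIKE targets were not examined here.

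Hd3a, the mobile flowering signal, was present only at a trace in the OX leaves. Its transcript (IRGSP-1.0 chr6:2940004-2942452, 847 bases) had 0.315 and 0.643 CPM in OX, 29.6 and 26.0 CPM in KO, and 40.2 and 43.3 CPM in WT. All 3 genotypes stood apart without overlap, with OX far below the others and KO between. The underlying counts were 10 and 22 reads in OX, 771 and 712 in KO, and 1038 and 1033 in WT. The 95% Poisson intervals of the OX levels were 0.151 to 0.579 and 0.403 to 0.974 CPM and cover counting error only. Mean Hd3a in OX was 1.15% of WT, a log2 fold change of -6.42 (SE 0.32). In KO it was 66.6% of WT, a log2 fold change of -0.59 (SE 0.24). OX against KO gave -5.84 (SE 0.31).

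Os03g0215400, the MADS-domain gene of sexual reproduction, had a similar outline. Proteins of this family bind DNA as pairs or larger complexes and specify floral meristems and organs. Its transcript (chr3:6052902-6061365, 1151 bases) had 0.252 and 0.117 CPM in OX, 11.5 and 13.6 CPM in KO, and 17.7 and 17.0 CPM in WT. The OX values rest on 8 and 4 reads, with Poisson intervals of 0.109 to 0.497 and 0.0319 to 0.299 CPM, against at least 300 reads in every KO and WT library. The genotypes again did not overlap. The mean was 1.07% of WT in OX (log2 fold change -6.53, SE 0.32) and 72.4% of WT in KO (-0.47, SE 0.23). OX against KO gave -6.07 (SE 0.32).

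MADS14, an APETALA1/FRUITFULL-type factor, was also low in OX, and of the 4 genes it was the lowest in KO relative to WT. Its transcript (chr3:31034529-31041563, 1781 bases), described as similar to isoform 2, had 0.567 and 0.760 CPM in OX, 4.72 and 4.35 CPM in KO, and 11.5 and 11.2 CPM in WT. The libraries lay close together in KO and in WT and differed 1.34 times in OX, and no genotypes overlapped. The reads behind these levels were 18 and 26 in OX, 123 and 119 in KO, and 298 and 268 in WT. MADS14 in OX averaged 5.83% of WT (log2 fold change -4.09, SE 0.23). KO averaged 39.8% of WT (-1.33, SE 0.20). OX against KO gave -2.76 (SE 0.22).

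MADS18, the other APETALA1/FRUITFULL-type factor, kept a sizeable level in all leaves. Its transcript (chr7:24788476-24793679, 1088 bases) had 32.4 and 31.6 CPM in OX, 51.7 and 51.7 CPM in KO, and 93.1 and 91.7 CPM in WT. Libraries of 1 genotype were nearly equal, and the genotypes stood in 3 separate steps. OX averaged 34.6% of WT (log2 fold change -1.53, SE 0.06) and KO 56.0% of WT (-0.84, SE 0.06). OX against KO gave -0.69 (SE 0.06). In bulk leaf RNA, fewer cells of a type and less RNA per cell cannot be told apart, for MADS18 and for the other genes described here.

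**Figure D1:**
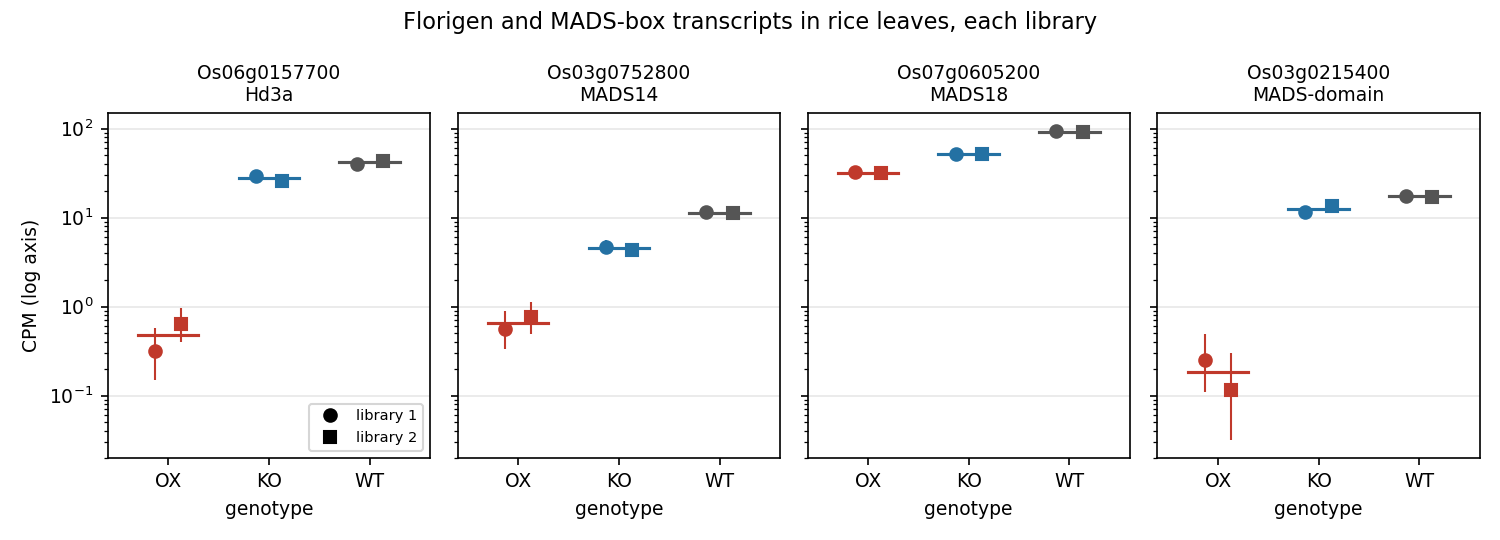
CPM (log axis) of Hd3a, MADS14, MADS18 and Os03g0215400 (MADS-domain) in each library of OX, KO and WT; circles are library 1, squares library 2, horizontal bars the mean of 2 libraries, and vertical bars 95% Poisson intervals for counting error only. In every panel OX lies below KO and KO below WT, with the widest gap below KO for Hd3a and Os03g0215400 and the narrowest for MADS18.

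All 4 genes followed the order OX below KO below WT with no overlap of libraries, an order met by 10.2% of all listed transcripts. Taken pair by pair, 38.2% of listed transcripts were lower without overlap in OX than in WT, 29.7% in KO than in WT and 50% in OX than in KO. The sizes differed widely: ranked from the lowest log2 fold change in OX against WT among 7034 tested transcripts, Os03g0215400 was number 2, Hd3a 4, MADS14 56 and MADS18 925. The ranks in KO against WT were 2031 for Os03g0215400, 1847 for Hd3a, 689 for MADS14 and 1451 for MADS18. Both comparisons use the same WT libraries. The KO values depend on how libraries are scaled: with DESeq2 size factors Hd3a, MADS14, MADS18 and Os03g0215400 were at -1.08, -1.82, -1.33 and -0.96 against WT, and with plain library totals at -0.39, -1.13, -0.64 and -0.27.

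The proportions among the 4 transcripts differed with genotype on the length-scaled TPM scale. MADS18 averaged 46.2 ± 1.3 TPM in OX, 65.0 ± 0.42 in KO and 96.3 ± 2.3 in WT (SD, n = 2 each). Hd3a averaged 0.874 ± 0.43 TPM in OX, 44.9 ± 3.8 in KO and 55.8 ± 2.2 in WT. MADS18 made up 97.1% and 95.8% of the summed TPM of the 4 transcripts in OX, 50.0% and 51.4% in KO, and 55.3% and 53.9% in WT. It was thus nearly the whole of the sum in OX and about equal to the other 3 together in KO and WT.

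Os03g0215400 averaged 0.247 ± 0.14 TPM in OX, 14.9 ± 1.8 in KO and 17.1 ± 0.72 in WT, and MADS14 0.573 ± 0.097 in OX, 3.47 ± 0.17 in KO and 7.24 ± 0.24 in WT. The order of levels in KO and WT was MADS18, Hd3a, Os03g0215400 and MADS14, with each gene's range clear of the next. In both OX libraries MADS14 lay above Os03g0215400 and Hd3a above MADS14. In OX, however, the lower Hd3a library (0.571 TPM) was below the higher MADS14 library (0.641 TPM), so those neighbours overlapped.

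Each OX line was 1 library, so a difference between lines cannot be told apart from one between libraries. Hd3a was 2.04 times as high in line 5 as in line 3, and Os03g0215400 was 2.16 times as high in line 3 as in line 5. The ratio was 1.34 for MADS14 and 1.02 for MADS18, beside a median of 1.17 over all tested transcripts. Hd3a and Os03g0215400 rested on 4 to 22 reads in OX, and the Poisson intervals of the lines overlapped for each, so a difference between lines was not detectable at this depth. In KO and WT the higher library exceeded the lower by at most 1.18 times for any of the 4.

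Other listed members of the florigen family were mostly lower in OX as well. Among the 5 other PEBP transcripts, 3 fell, 1 rose and 1 was not called in OX against WT. Over all 7034 tested transcripts 44.1% were called (25% higher, 19% lower). The list's median log2 fold change was -2.88, beside 0.28 over all tested transcripts.

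Os06g0552900, also described as similar to SP3D, had 0.221 and 0.409 CPM in OX, 0.920 and 1.06 CPM in KO, and 3.06 and 4.44 CPM in WT. Its 3 genotypes did not overlap. In OX against WT it fell by 3.55 on the log2 scale (SE 0.42, edgeR adjusted p = 0.00451). In KO against WT it fell by 1.91 (SE 0.38, edgeR adjusted p = 0.0363), a call lost when either KO or either WT library was left out.

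Os01g0218500, the third transcript described as similar to SP3D, had 0.126 and 0.0585 CPM in OX, 0.920 and 0.512 CPM in KO, and 1.43 and 0.922 CPM in WT. KO and WT were close at one end of their ranges while OX lay below both. Relative to WT, in OX it fell by 3.63 on the log2 scale (SE 0.60, edgeR adjusted p = 0.0165), and the call was lost without OX library 1, OX library 2 or WT library 1. KO against WT gave -0.72 (edgeR adjusted p = 0.989).

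Os09g0513500, similar to the maize family member ZCN24, had 0.662 and 0.555 CPM in OX, 5.71 and 6.91 CPM in KO, and 4.84 and 4.19 CPM in WT. OX alone was low, and KO stood slightly above WT. In OX against WT it fell by 2.88 on the log2 scale (SE 0.25, edgeR adjusted p = 0.00152) and gave 0.48 in KO against WT (edgeR adjusted p = 0.48).

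Os05g0468800, which carries a PEBP domain, ran the other way. It had 5.17 and 5.67 CPM in OX, 4.41 and 4.13 CPM in KO, and 1.94 and 1.76 CPM in WT. Both altered genotypes lay above WT. It rose in OX by 1.55 on the log2 scale (SE 0.20, edgeR adjusted p = 0.00699), a call lost without OX library 2, and in KO by 1.21 (SE 0.20, edgeR adjusted p = 0.0209), a call lost in 9 of 12 alternative settings. The ZCN12-like Os05g0518000 was not called in OX against WT (-1.57, edgeR adjusted p = 0.192). In KO against WT, where 36% of tested transcripts were called (25% higher, 11% lower), the 5 transcripts gave 1 higher and 1 lower call with a median of 0.36, beside 0.43 over all. In OX against KO, where 38.3% were called (13.3% higher, 25% lower), 2 of the 5 fell (Os09g0513500 and Os01g0218500) and none rose.

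**Figure D2:**
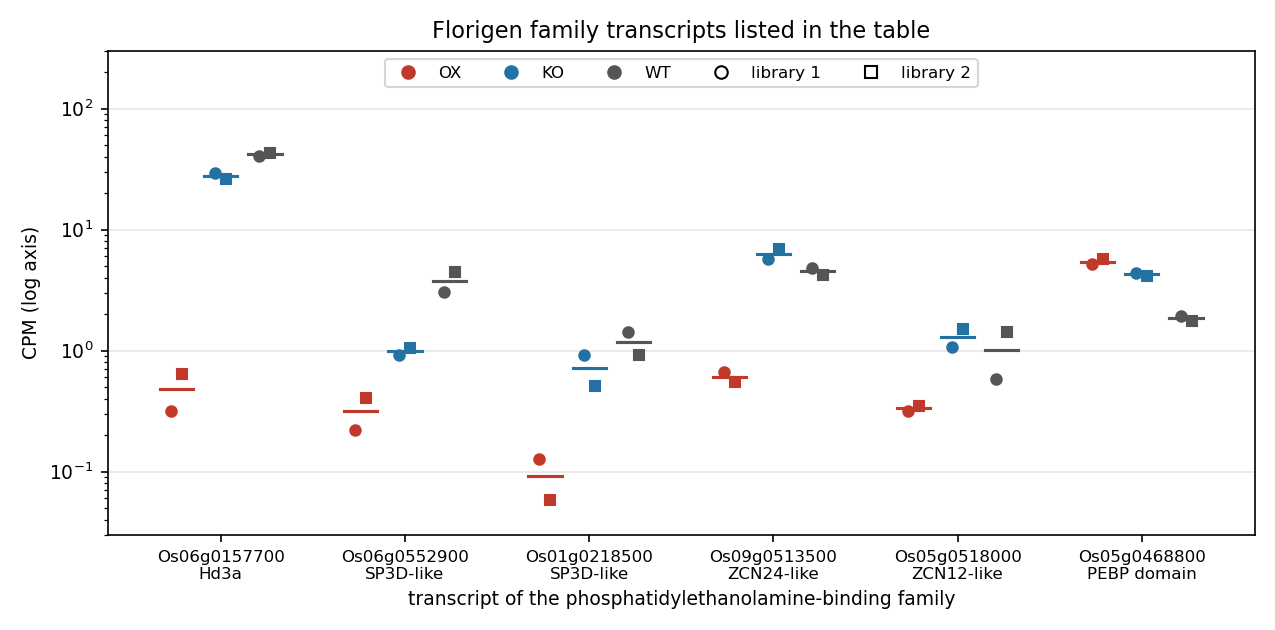
CPM (log axis) of the 6 listed PEBP-family transcripts in each library of OX, KO and WT; circles are library 1, squares library 2, and bars the mean of 2 libraries. Hd3a, both other SP3D-like transcripts, the ZCN24-like transcript and the ZCN12-like transcript have their lowest levels in OX. The ZCN12-like transcript was not called in OX against WT. Os05g0468800 is above WT in both OX and KO.

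Florigen genes have close copies in the rice genome. How the authors assigned reads shared by copies is not given in the sources used here. Of 17 PEBP loci looked up by identifier, 5 were among the listed transcripts; the other 12 are not analysed here.

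MADS-box genes other than the chosen 3 were scarce in the table, and edgeR called none of 3 listed transcripts in any of the 3 comparisons, although 2 of them had an unadjusted p below 0.05 in each. DESeq2's Wald test called 1 when OX was set against WT, 1 when KO was set against WT and 0 between OX and KO. Os08g0494100 had a log2 fold change of -1.77 in OX against WT (SE 0.42, edgeR adjusted p = 0.0597), a value that became a call with DESeq2 size factors or DESeq2's Wald test. The AGL72-like Os08g0531900 gave -1.17 (edgeR adjusted p = 0.135). Os04g0614100 gave 0.42 (edgeR adjusted p = 1), and its sign turned without OX library 1 or WT library 2. Set against WT, KO gave 2.05 for that transcript (edgeR adjusted p = 0.0889), which was called higher with the replicate block and by DESeq2's Wald test. Of 13 loci of floral-organ MADS genes looked up, only Os03g0215400 was listed. None of 5 shoot-meristem and inflorescence loci, and neither of 2 AP2 loci of the miR172 group, was among the listed transcripts.

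Among the 3 tested transcripts of the list of regulators upstream of florigen, only a CONSTANS-like repressor was called in OX or KO against WT. Os02g0610500, described as a CO-like protein with B-box and CCT domains that constitutively represses flowering, had 63.8 and 69.4 CPM in OX, 95.0 and 100.2 CPM in KO, and 147 and 160 CPM in WT. Its levels stepped up by genotype without overlap, in the order seen for the 4 chosen genes. It fell by 1.20 on the log2 scale in OX (SE 0.07, edgeR adjusted p = 0.000482) and by 0.65 in KO (SE 0.07, edgeR adjusted p = 0.0047), and both calls stood in all 12 alternative settings. Of 19 upstream loci looked up, 4 were listed and 3 tested. Os08g0174500, similar to Heading date 5 (a CCAAT-binding subunit that delays rice flowering in long days), was not called in OX (-2.31, edgeR adjusted p = 0.154). Os03g0762000, an alpha subunit of protein kinase CK2, was not called either (-1.37, edgeR adjusted p = 0.28). Os08g0105000, a PHD-finger protein, was too scarce to be tested.

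The wider CONSTANS-like and CCT-domain group of 9 transcripts, which includes that repressor, was divided. In OX against WT 2 rose, 5 fell and 2 were not called, beside 25% higher and 19% lower calls over all tested transcripts. The median log2 fold change was -0.68, beside 0.28 over all. Os05g0595300, CONSTANS-like, had 139 and 130 CPM in its second transcript in OX, 68.4 and 64.4 CPM in KO, and 57.0 and 50.8 CPM in WT. OX was above both other genotypes, a rise of 1.32 on the log2 scale against WT (SE 0.08, edgeR adjusted p = 0.000472). The first transcript of this gene was not called against WT in OX (0.31) or KO (1.12). It was highest in KO, with means of 1.91 CPM in OX, 3.37 in KO and 1.54 in WT. The CCT-domain transcript of Os01g0835700 had 0.945 and 1.26 CPM in OX, 4.99 and 4.50 CPM in KO, and 4.45 and 3.35 CPM in WT. In OX it fell by 1.82 (SE 0.28, edgeR adjusted p = 0.0124), a call lost without OX library 1 or WT library 1. KO against WT gave 1 higher and 4 lower calls, beside 25% and 11% of all tested transcripts. The higher call, of Os11g0157600, was lost in 6 of 12 alternative settings: TMM, DESeq2 size factors, the replicate block, and without KO library 2, WT library 1 or WT library 2. Without KO library 1 the lower calls fell to 2.

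The listed transcripts for florigen's binding partners were 6, from 3 genes. With edgeR and the authors' totals they gave 0 calls in OX against WT and 1 in KO against WT. Over all tested transcripts 44.1% and 36% were called. The 5 listed 14-3-3 transcripts of 2 genes and Os09g0540800, a hypothetical conserved gene looked up by its locus, gave no call in OX against WT under edgeR with the authors' totals and all libraries, with 2 of the 6 at an unadjusted p below 0.05. One of them, the 14-3-3 transcript of Os02g0580300, was called lower by DESeq2's Wald test, and by edgeR without OX library 1, under the replicate block or with DESeq2 size factors. It had 44.0 and 27.5 CPM in OX, 49.4 and 41.6 CPM in KO, and 74.4 and 68.9 CPM in WT (edgeR adjusted p = 0.0735 in OX against WT). The first transcript of Os04g0462500, similar to the 14-3-3 protein GF14-6, had 20.7 and 20.9 CPM in OX, 54.6 and 42.5 CPM in KO, and 29.2 and 25.4 CPM in WT. It was high in KO alone: it rose by 0.83 on the log2 scale in KO against WT (SE 0.14, edgeR adjusted p = 0.0234), a call lost in 7 of 12 alternative settings. The other transcripts of this gene gave log2 fold changes in OX against WT of -0.15 (Os04t0462500-02, edgeR adjusted p = 1), -1.12 (Os04t0462500-04, adjusted p = 1) and -0.85 (Os04t0462500-05, adjusted p = 0.415), and the sign of Os04t0462500-02 turned with plain library totals and without OX library 1 or WT library 2. Set against WT, KO gave 1.88 (Os04t0462500-02), 0.94 (Os04t0462500-04) and 0.65 (Os04t0462500-05), none called by edgeR with the authors' totals and all libraries. For the first transcript OX against KO gave -1.22 (edgeR adjusted p = 0.00568). Transcripts of 1 gene may share reads. Os09g0540800 gave 1.10 (edgeR adjusted p = 0.463).

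Squamosa promoter-binding (SPL) factors, which activate MADS-box genes in ageing shoots, had 2 listed transcripts. Os06g0703500 rose in OX by 1.51 on the log2 scale (edgeR adjusted p = 0.0376), a call lost in 8 of 12 alternative settings, and the other was not called. Neither of 2 listed photoreceptor transcripts, a phytochrome A and a cryptochrome DASH, was called by edgeR with the authors' totals or by DESeq2's Wald test in OX or KO against WT, and 1 had an unadjusted edgeR p below 0.05 in each. The phytochrome A transcript of Os03g0719700 had 4.03 and 3.45 CPM in OX, 1.34 and 1.10 CPM in KO, and 1.97 and 2.22 CPM in WT. It was called higher in OX against WT with plain library totals and lower in KO against WT with DESeq2 size factors. Set against KO, OX was higher by 1.61 on the log2 scale (edgeR adjusted p = 0.0156).

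**Figure D3:**
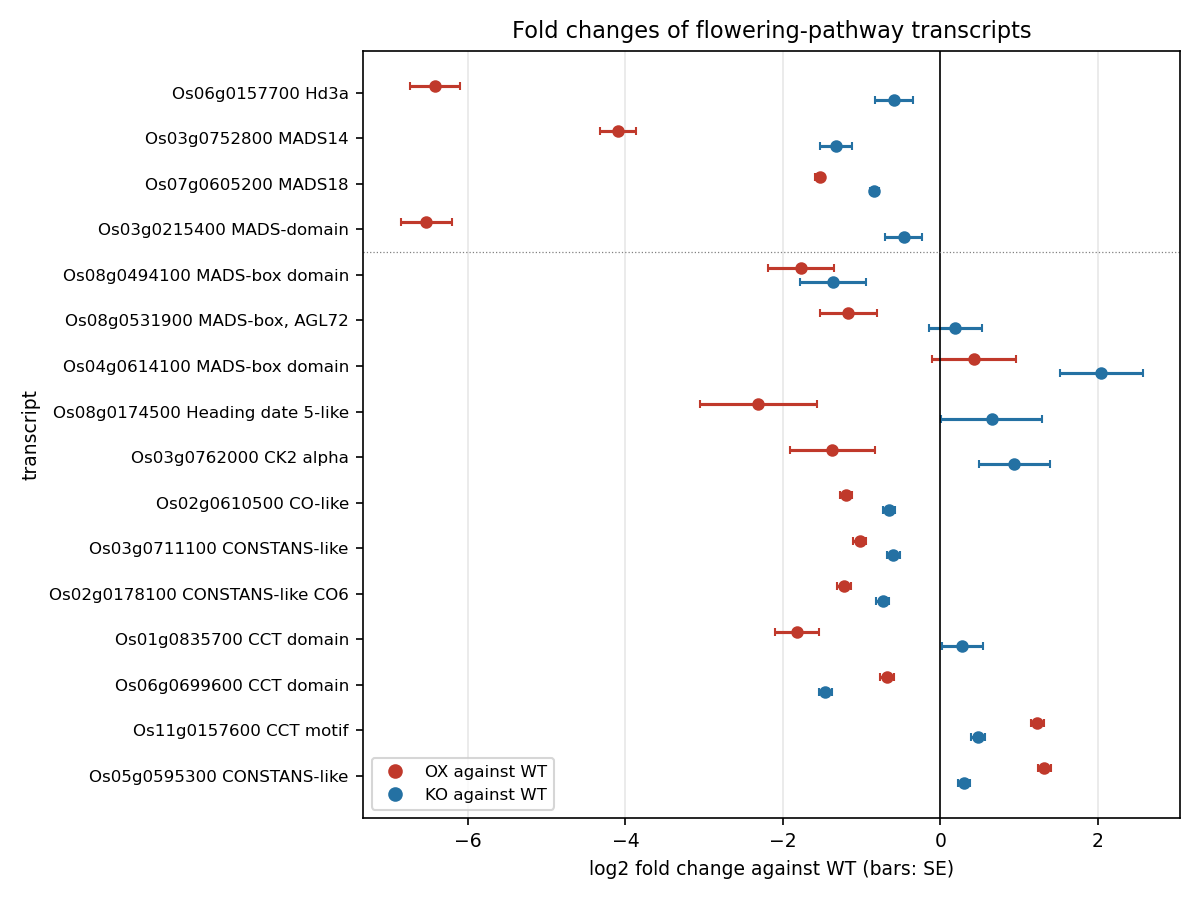
Log2 fold changes with their SE for OX against WT and KO against WT; above the dotted line the 4 chosen genes, below it other MADS-box transcripts, upstream regulators and the called CONSTANS-like and CCT transcripts. OX values of the chosen genes run from -6.53 to -1.53 and KO values from -1.33 to -0.47. The transcripts below the line lie between -2.31 and 2.05, a range that takes in MADS18 and the KO values of the chosen genes. The other PEBP transcripts, of which 3 fell and 1 rose in OX against WT, are not plotted here.

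The 3 MADS-box genes are among 50 listed transcripts that the authors' deposited table places under the Gene Ontology term flower development, which it gives an adjusted enrichment p of 0.696. Hd3a carries no Gene Ontology term in the authors' deposited table. Of the other 47 transcripts 46 were tested. For OX against WT 6 rose, 16 fell and 24 were not called, with a median log2 fold change of -1.16, beside 25% higher and 19% lower calls and a median of 0.28 over all. For KO against WT 7 rose and 9 fell, with a median of 0.15, beside 25% higher and 11% lower calls over all. The 9 lower calls became 4 without KO library 1 and 6 without KO library 2 or WT library 2. That division moved with the scaling, to 5 higher and 12 lower with DESeq2 size factors and to 10 higher and 7 lower with plain library totals. The SP3D-like Os01g0218500, the repressor Os02g0610500, the AGL72-like Os08g0531900 and the CCT-domain Os01g0835700 are among these transcripts.

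Homologues of FPF1, a small protein that promotes flowering when overexpressed in Arabidopsis, moved in both directions. Os07g0671000, similar to FPF1, had 14.1 and 13.8 CPM in OX, 1.15 and 0.658 CPM in KO, and 0.542 and 1.13 CPM in WT. It was present at a clear level in OX alone and rose by 4.06 on the log2 scale against WT (SE 0.44, edgeR adjusted p = 0.00349). Os01g0933500, similar to FLP1, had 0.189 and 0.0585 CPM in OX, 3.53 and 2.85 CPM in KO, and 2.56 and 1.72 CPM in WT. It was nearly missing in OX and fell by 4.08 (SE 0.54, edgeR adjusted p = 0.00731).

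Both remaining FPF1-like transcripts of the term were looked at after their values were seen. Os04g0282400, similar to the FPF1-like RAA1, had 7.31 and 8.10 CPM in OX, 56.8 and 55.2 CPM in KO, and 47.5 and 51.5 CPM in WT, and in OX it fell by 2.68 (SE 0.09, edgeR adjusted p = 0.000101). Os01g0257300 was not called (1.72, edgeR adjusted p = 0.227). None of these 4 transcripts was called in KO against WT.

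**Figure D4:**
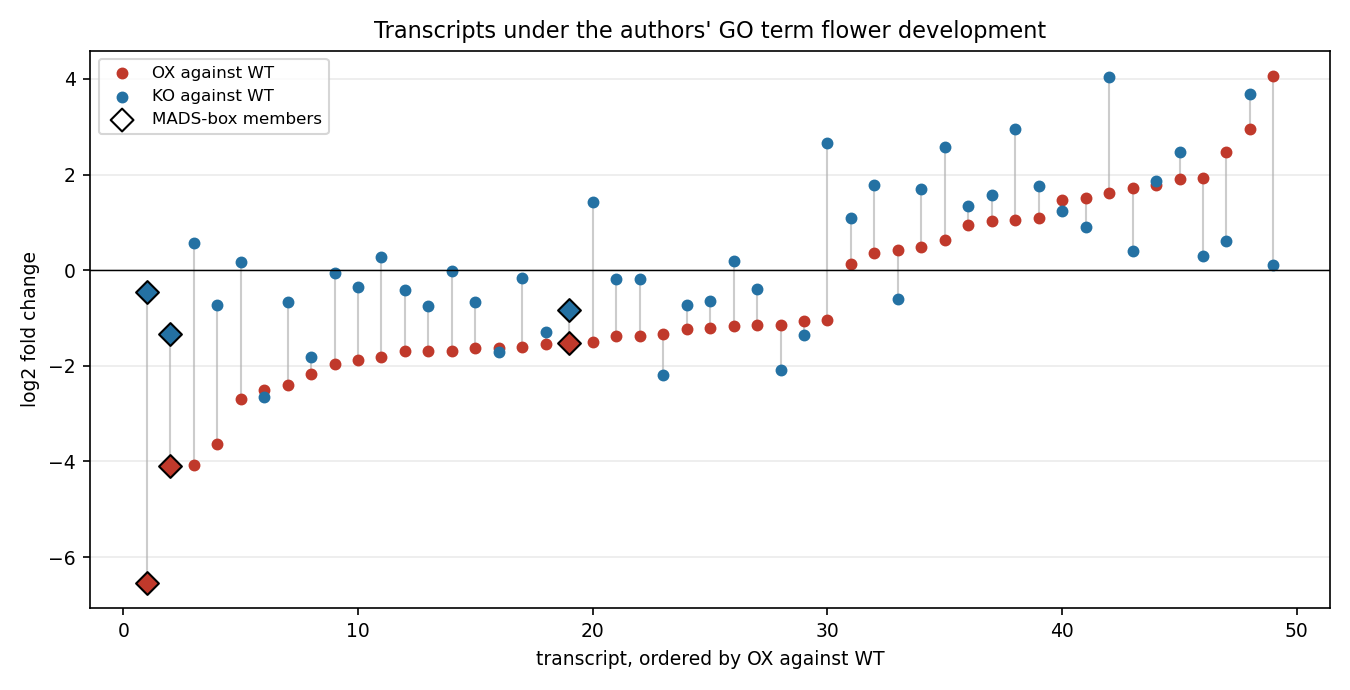
Log2 fold changes of the 49 tested transcripts under the authors' term flower development, ordered by OX against WT, with KO against WT above or below each; diamonds mark the 3 MADS-box genes. Both comparisons share the WT libraries. Os03g0215400 and MADS14 hold the lowest values in OX against WT, at -6.53 and -4.09, while Os07g0671000 is at 4.06 on the far right.

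Day-length and clock annotations took in further transcripts. Under photoperiodism in the authors' deposited table none of the 4 genes appears. Of its 9 tested transcripts 1 rose and 5 fell in OX against WT, beside 25% and 19% of all transcripts, and the 1 higher call was lost without OX library 1 or 2, KO library 1 or 2, or WT library 1. The largest falls were those of Os10g0498700 (-2.99, edgeR adjusted p = 0.00419) and the B-box protein Os09g0240200 (-1.70, edgeR adjusted p = 0.000137). The circadian rhythm map holds Hd3a and has a false discovery rate of 0.000336 in the authors' deposited table. Of its other 6 transcripts 4 rose and 2 fell in OX against WT, beside 25% and 19% of all transcripts. The 4 became 3 with DESeq2 size factors or without OX library 1, WT library 1 or WT library 2, and 2 without OX library 2. The largest rises were those of the chalcone synthase transcript of Os11g0530600 (3.32, edgeR adjusted p = 0.000632), an enzyme of flavonoid synthesis, and of the CCT-motif transcript of Os11g0157600 (1.23, edgeR adjusted p = 0.000651). The latter transcript is also counted in the CONSTANS-like and CCT-domain group. For KO against WT the 6 gave 1 higher and 3 lower calls, beside 25% and 11% of all transcripts. With DESeq2 size factors they gave 0 higher and 5 lower, and without WT library 1 or 2 they gave 0 higher and 1 lower.

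Most of the listed photosynthetic leaf transcripts were lower in OX and in KO than in WT. The 14 leaf-marker transcripts came from 10 genes. They are only those in the authors' selection of differing transcripts, so leaf transcripts that did not differ are left out of the counts and the sum. Of the 14, 13 fell in OX against WT (median -1.40) and 12 fell in KO against WT (median -0.74). Over all tested transcripts 19% and 11% were called lower. Without KO library 1 or 2 the KO count was 8. The remaining transcript in OX, Os02t0197600-01 of a chlorophyll a/b-binding gene, was not called but lay above WT, with 232 and 236 CPM in OX, 78.0 and 13.6 CPM in KO, and 75.3 and 45.0 CPM in WT (log2 fold change in OX against WT 1.96, edgeR adjusted p = 0.349). It was called higher in OX without KO library 1 or 2. Their summed level was 41813 and 44155 TPM in OX, 60110 and 59472 TPM in KO, and 79986 and 82720 TPM in WT. The lowest were both transcripts of the chlorophyll a/b-binding gene Os01g0600900, with log2 fold changes in OX of -2.53 and -1.73 (edgeR adjusted p = 0.00145 and 0.000198). The part of this leaf-marker difference in the result for florigen and the MADS-box genes was not tested. Relative to the WT mean, MADS18 stood at 49.0% and 47.1% in OX and 67.2% and 67.9% in KO on the TPM scale, and the leaf-marker sum at 51.4% and 54.3% in OX and 73.9% and 73.1% in KO. Hd3a on the same scale was at 1.02% and 2.11% in OX and 85.2% and 75.7% in KO.

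**Figure D5:**
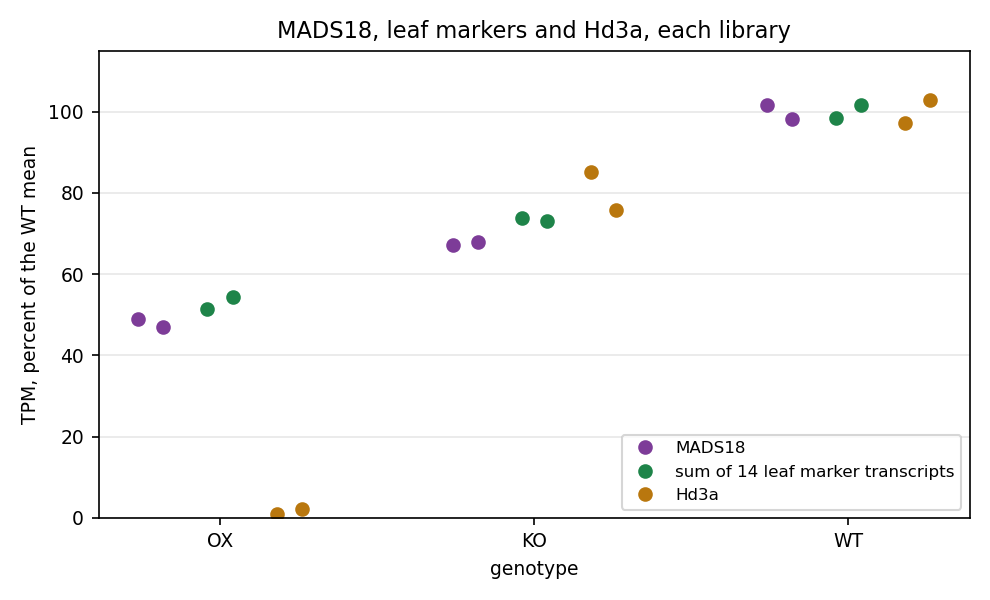
TPM of MADS18, of the sum of 14 leaf-marker transcripts and of Hd3a in each library, as a percentage of the WT mean of each. MADS18 lies at 49.0% and 47.1% in OX and at 67.2% and 67.9% in KO. The leaf-marker sum lies above it, at 51.4% and 54.3% in OX and at 73.9% and 73.1% in KO. Hd3a is at 1.02% and 2.11% in OX. Each series is scaled to its own WT mean, so the match in WT is fixed. The leaf markers are only those in the authors' selection of differing transcripts.

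Transcripts with the profiles most like each gene were ranked by the root-mean-square distance between centred log2 CPM profiles over the 6 libraries, among 7033 others. The nearest to MADS18 were a DUF266 protein (Os12g0618800, 0.054), a ribulose bisphosphate carboxylase small chain (Os12g0292400, 0.059), a cinnamyl alcohol dehydrogenase (Os09g0400300, 0.060), a cytochrome P450 (Os10g0166600, 0.060) and a photosystem II chlorophyll a/b-binding protein (Os03g0592500, 0.064). Of these 5, 2 were leaf markers, beside 14 leaf markers among the 7034 tested transcripts. The 5 distances lay close together, from 0.054 to 0.064. MADS18 was picked for how it differed between these libraries, so its nearest profiles are a description only. MADS14 was nearest to an SGNH-type esterase (Os10g0140300, 0.148), a NAC protein (Os08g0200600, 0.247), the homeobox gene HOX26 (Os02g0149900, 0.318), a beta-glucanase (Os05g0375400, 0.347) and a calmodulin-binding protein (Os02g0177800, 0.358).

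Hd3a was nearest to a conserved hypothetical protein (Os01g0910500, 0.377), the glutaredoxin-C1-like Os01g0368900 (0.403), the nicotianamine synthase NAS3 (Os07g0689600, 0.570), Os05g0111300 (0.598) and Os03g0215400 (0.601). Os03g0215400 had Os01g0368900 (0.419), Os07g0689600 (0.501), Os02g0203700 (0.535), Hd3a (0.601) and Os01g0910500 (0.606). The pair Hd3a and Os03g0215400 therefore shared 3 of their nearest transcripts and ranked among each other's 5. Both were picked for how they differed between these libraries, and a large fall in OX weighs heavily in this distance. Their closeness is thus a description only. MADS14 was number 56 from Hd3a, at 1.35, and MADS18 number 1128, at 2.42. Glutaredoxin-C1-like Os01g0368900 averaged 2.14 ± 0.092 CPM in OX, 85.8 ± 0.90 in KO and 139 ± 2.2 in WT (SD, n = 2 each).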

How the data were processed

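Per the labels' protocols, leaf RNA was purified on RNeasy columns and TruSeq Stranded mRNA libraries were sequenced. The submitters' processing notes name the build IRGSP-1.0. Aligner, counter, strand setting and the authors' own test: not given in the sources used here. The deposited table holds the authors' estimated counts per transcript, rounded up to whole numbers, and their FPKM and TPM, scaled by transcript length and library depth. The authors' log2 normalised values gave the effective library totals used as library sizes. The authors' signed fold-change scores and deposited p-values served only to test the selection, which all 7194 transcripts met. The authors tested 27384 transcripts.

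Counts were fitted with edgeR 4.0.16 (quasi-likelihood, robust; R 4.3.3) on the 6 libraries together, with genotype as its single term. After filterByExpr 7034 transcripts remained and 160 were dropped. Adjustment ran over 27384 transcripts, each one outside the table counted as having a larger p. The biological coefficient of variation was 0.291. Libraries of a group differed beyond sampling noise (chi-square per degree of freedom 18.9 in OX, 13.6 in KO and 16.6 in WT). The procedure was tested on simulated data. Profiles used a pseudocount of 0.5 counts.

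The 4 genes and the lists were chosen with earlier results of these data known. Lists were matched by locus or description; 1 pattern of the SPL list was dropped because it matched unrelated proteins. Named were the 4 genes, every listed transcript of the PEBP, MADS, upstream, partner and meristem lists, the 5 nearest profiles per gene, and the 2 called transcripts with the largest change in OX against WT of each other list. Alternatives were DESeq2 1.42.0 size factors and Wald test, TMM, plain library totals, no filter, a replicate block and leaving out each library. No per-sample column was left unused.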

Additional observations from a re-analysis of the deposited data

How the results depend on the processing

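The log2 fold changes of all 4 genes stayed below 0 in all 12 alternative settings in each of the 3 comparisons. Another scaling moved the median log2 fold change of all transcripts. DESeq2 size factors, TMM and plain library totals shifted it by -0.17, -0.02 and 0.37 for OX against WT. The shifts were -0.49, -0.40 and 0.19 for KO against WT and 0.32, 0.38 and 0.17 for OX against KO. In OX against WT, MADS14 moved to -3.72 (plain totals) and MADS18 to -1.70 (DESeq2 size factors) and -1.16 (plain totals). The KO against WT values with DESeq2 size factors, TMM and plain totals were -1.08, -0.99 and -0.39 for Hd3a, -1.82, -1.73 and -1.13 for MADS14, -1.33, -1.24 and -0.64 for MADS18, and -0.96, -0.87 and -0.27 for Os03g0215400. In OX against KO, MADS14 moved to -2.44 (DESeq2 size factors) and -2.39 (TMM), and MADS18 to -0.37, -0.32 and -0.52 (plain totals last). The KO against WT calls, 1758 higher and 776 lower, became 1111 and 1356 with DESeq2 size factors, and 1237 lower with TMM; the share of calls that were higher was 69.4%, against 45.0% and 49.8% with those scalings and 77.1% with plain totals. For OX against WT it was 56.9%, against 49.6% with DESeq2 size factors and 70.8% with plain totals, and in OX against KO 34.7%, against 50.0% and 53.0% with DESeq2 size factors and TMM. Over the flowering lists, 3 higher calls in KO against WT became 0 with DESeq2 size factors or TMM and 6 with the Wald test.

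Leaving out 1 library at a time, where a genotype left with 1 library is assumed to vary like the others, calls in OX against WT ran from 1097 to 1527 higher and 882 to 1169 lower (1762 and 1337 with all libraries), in KO against WT from 1112 to 1484 and 433 to 674, and in OX against KO from 497 to 880 and 1083 to 1705 (934 and 1759 with all). Over the flowering lists, higher calls in OX against WT ran from 2 to 3 (4 with all), and in KO against WT higher calls from 0 to 1 (3 with all) and lower calls from 2 to 6 (5 with all). Some transcripts changed sign and were not called in those settings. Os04g0462500 (second transcript) in OX against WT (-0.15) reached 0.23 with plain totals, 0.086 without OX library 1 and 0.86 without WT library 2 (-0.74 to 0.86 leaving out any 1 library), Os04g0614100 (0.42) reached -0.053 without OX library 1 and -0.057 without WT library 2 (up to 1.17 leaving out any 1 library), and Os11g0157600 in KO against WT (0.48) reached -0.013 with DESeq2 size factors. The replicate numbers do not pair the libraries: same-numbered libraries deviated with correlations of 0.0161 (OX and KO), 0.0747 (OX and WT) and 0.00644 (KO and WT) over transcripts. With a replicate block there were 2695 calls for OX against WT (3099 without it), 2158 for KO against WT (2534 without it) and 2308 for OX against KO (2693 without it). Depth limits the OX values of Hd3a and Os03g0215400, which rest on 4 to 22 reads, and those of other scarce transcripts. Among the PEBP transcripts in OX, Os01g0218500 had 4 and 2 reads, Os06g0552900 7 and 14, and Os05g0518000 10 and 12. Apart from the scaling shifts, the cause of these movements was not tested.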

Other observations

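Listed transcripts within 100 kb of each gene (IRGSP-1.0) were compared with it. Around Hd3a there were 3, of which 1 rose and none fell in OX against WT. Around MADS14 there were 11, of which 4 rose and 1 fell, and around MADS18 there were 8, of which 3 rose and 5 fell. These are transcripts and not separate genes. Os03g0751100 near MADS14 was counted with more than 1 transcript, as were Os07g0603800, Os07g0604000 and Os07g0605400 near MADS18. None of 5 around Os03g0215400 was called under edgeR, while 2 had an unadjusted p below 0.05 and DESeq2's Wald test called 2. Over all tested transcripts 25% rose and 19% fell. The following neighbours were picked after their values were seen. The COBRA-like transcript of Os03g0754500, 83.6 kb from MADS14, averaged 3.10 CPM in OX, 0.828 CPM in KO and 0.239 CPM in WT and rose in OX by 3.67 on the log2 scale (edgeR adjusted p = 0.00533). The first transcript of the 6-phosphogluconolactonase-like Os07g0604000, 46.4 kb from MADS18, averaged 9.41 CPM in OX, 52.2 CPM in KO and 58.5 CPM in WT and fell in OX by 2.63 (edgeR adjusted p = 0.000206). The transcript of Os07g0604300, 33.2 kb from MADS18, averaged 18.0 CPM in OX, 15.5 CPM in KO and 2.20 CPM in WT and rose in both, by 3.03 in OX (edgeR adjusted p = 0.000493) and by 2.81 in KO (edgeR adjusted p = 0.000674).

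In the flower-development term, 2 other transcripts picked after their values were seen were high in both altered genotypes. The MAP kinase Os03g0285800 averaged 33.7 ± 2.7 CPM in OX, 56.1 ± 4.0 in KO and 4.38 ± 1.0 in WT (SD, n = 2 each). The jumonji-domain gene Os10g0577600 averaged 21.0 ± 0.13 CPM in OX, 113 ± 3.2 in KO and 6.86 ± 0.67 in WT.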
